A study of Saccharomyces cerevisiae with 16 samples.

Results

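Mitochondrial ribosomal protein genes of budding yeast were followed through a series of carbon source shifts, in wild type cells and in cells that lack Hda1, the catalytic subunit of a histone deacetylase complex. The members were defined by their symbols, with no measured value in the rule. They are all nuclear genes whose symbol is MRPL, MRPS or RSM followed only by a number, which gave 54 genes of 6685 nuclear open reading frames (ORFs) in the files. Of the 54 genes, 34 carry an MRPL symbol (large subunit) and 20 an MRPS or RSM symbol (small subunit), and they lie on 14 chromosomes, with coding lengths of 213 to 1887 bases. Their RefSeq product names read mitochondrial ribosomal protein for 53 of the 54, and tRNA methyltransferase for the remaining gene, RSM22. All 54 had a mean level of at least 1 FPKM (fragments per kilobase of transcript, scaled to library size), the minimum that 5881 nuclear ORFs passed.

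The 16 libraries came from 2 strains, YSB787 labelled wild type and YTK113 labelled hda1-/-, with 1 library for each genotype at each of 8 stages. Cells were grown in synthetic complete medium with raffinose (Ra-0), moved to galactose for 15, 30 and 120 min (Gal-15, Gal-30, Gal-120), then to glucose for 30 and 120 min (Glu-30, Glu-120), and again to galactose for 15 and 30 min. The stages labelled Gal-15-1 and Gal-30-1 were read as this second exposure, from the order of the shifts in the growth protocol, since the labels do not spell out the suffix. Each genotype is 1 strain, and no stage has a replicate, so no p-value is given and a genotype difference cannot be told apart from a difference between single cultures. Intervals beside folds are 95% exact binomial intervals on fragments, which cover counting error only. Folds and log2 ratios are on the FPKM + 1 scale.

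Mitochondria translate a small set of respiratory chain subunits from their own genome on their own ribosomes. The ribosomal RNAs and 1 ribosomal protein, VAR1, are encoded in the mitochondrial DNA of yeast, while all other ribosomal proteins are made in the cytosol from nuclear genes and imported. Many of these proteins have a counterpart in bacterial ribosomes (33 of the 54 genes), and others arose in the mitochondrial lineage (20 genes, with RSM22 left unclassified). Yeast represses respiration on glucose, and messages for mitochondrial ribosomal proteins are textbook targets of Puf3, an RNA-binding protein of the cytosol that recognises a short site after the stop codon.

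The letters of that site, TGTANATA on the transcript strand with N any base, were searched in the 300 bases after each stop codon of the R64 genome. They were present in 53 of the 54 genes (98.1%), against 966 of all 5881 tested ORFs (16.4%). The first site began between 8 and 139 bases after the stop codon, with a median of 54, and 14 genes held 2 or more sites. In a window of 150 bases the shares were 98.1% and 12.7%. RSM22 was the exception, with no such letters in its window. The open place of the first site, position 5 counted from the 5′ end, held A in 25 genes, T in 16, C in 11 and G in 1, MRPL3. A C stood 2 bases before a site in 43 of the 54 genes (79.6%), 53 of which hold a site. Of all 5881 tested ORFs 283 had it (4.81%), where only 966 hold a site, so that share mostly reflects ORFs with no site.

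The 9 sites that follow belong to the 5 members with the largest wild type rise between Glu-120 and Gal-30-1, to the 3 members with the smallest rise that have a site, and to MRPS9, whose profile over the 16 libraries lay closest to the median of the members. Each line gives the first site after the stop codon in capitals with its flanks in lower case, 5′ to 3′, and the letters come from the RefSeq sequence of R64.
RSM10: gatttcgtactTGTAAATAaaataggtgaa
MRPL25: atgtctaatcaTGTAAATAattttgtgata
MRPS12: atacaacctttTGTAAATAgcaatgaccat
MRPL28: ctgtctcctgcTGTAAATAactgatgatca
RSM28: tcttacataccTGTAAATAtctagtacgta
MRPS9: ttcgttattccTGTAAATAaagttatatgt
MRPL20: aataacaatcgTGTAAATActactctataa
RSM26: atcttatatacTGTAAATAgttttatttta
MRPL3: gtttgccatttTGTAGATAgagaactcctt

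The RSM10 site lies at chrIV:540462-540491 on the plus strand, that of MRPL25 at chrVII:637008-637037 on the minus strand, and that of MRPS12 at chrXIV:694269-694298 on the minus strand. The MRPL28 and RSM28 sites lie on the plus strand at chrIV:1386537-1386566 and chrIV:1438036-1438065. MRPS9 has its site at chrII:536224-536253 on the plus strand, MRPL20 at chrXI:599049-599078 on the minus strand, RSM26 at chrX:619111-619140 on the plus strand and MRPL3 at chrXIII:323054-323083 on the plus strand. All lie outside the coding sequence, downstream of their own stop codon. The 5 members that rose most and 3 of the other 4 carry the same 8 letters, and MRPL3 alone of the 9 has G at the open place of its first site. Among the second sites of these 9 genes, that of MRPL3, 53 bases after the stop codon, and that of MRPL28, 88 bases after it, have C there, and that of MRPS12, 266 bases after it, has G.

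Among related groups, 21 of 21 listed other nuclear mitochondrial ribosomal protein genes held the same letters (those named MRP, PET123, NAM9 and the like, without MHR1). So did 13 of 13 mitochondrial tRNA synthetase genes (100% each). The letters were also found in 11 of 15 translational activators (73.3%) and in 8 of 12 translation factors (66.7%). They were found in 9 of 35 nuclear respiratory chain and ATP synthase genes (25.7%) and in 12 of 138 cytosolic ribosomal protein genes (8.7%). Upstream of the start codon the letters CCAAT, the core of the site bound by the Hap complex, which drives respiratory genes, lay on either strand within 300 bases of 31 of 35 respiratory chain genes (88.6%), but of 20 of the 54 members (37.0%) and of 42.3% of all tested ORFs.

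**Figure D1:**
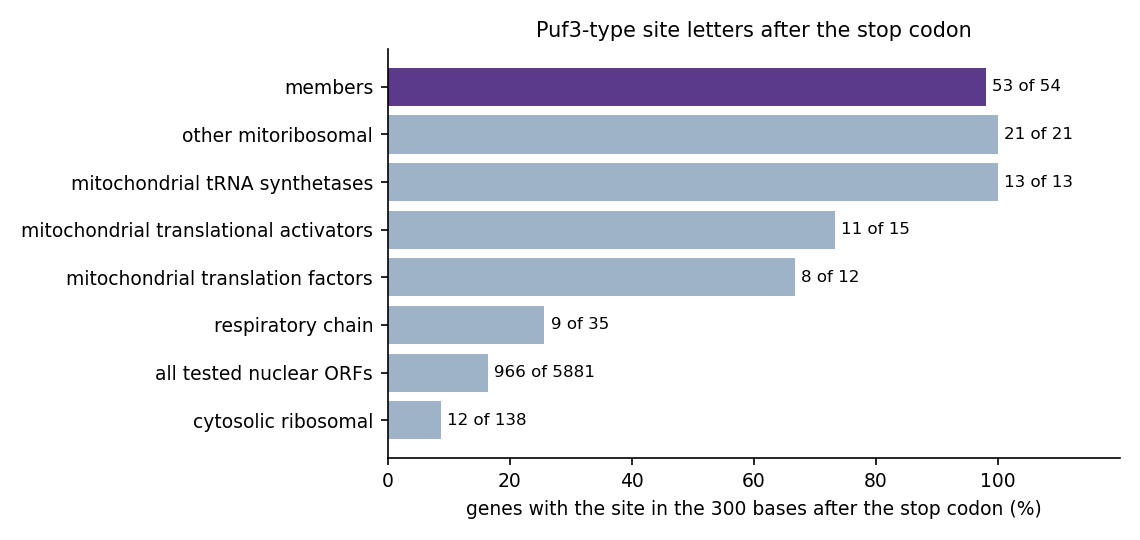
Share of genes (horizontal axis, percent) whose 300 bases after the stop codon hold the letters TGTANATA, for the members and 7 other gene groups, with counts at the bar ends. The members stand at 98.1% and all tested nuclear ORFs at 16.4%.

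In the other upstream letters searched, the members were at or below the background. AATTTT was found upstream of 35.2% of members and 53.9% of all tested ORFs, TATAAA upstream of 35.2% and 47.4%, and GATGAG upstream of 18.5% and 19.3%, on either strand. A match is a description of the letters and not of binding.

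Levels were moderate and close together. The mean over the 16 libraries had a median of 53.4 FPKM over the 54 genes, with quartiles of 42.6 and 62.5 FPKM, and 45 genes had a mean between 30 and 80 FPKM. Small subunit genes had a median of 61.4 FPKM and large subunit genes one of 49.8 FPKM. Together the members made up 0.297% to 0.653% of the summed FPKM of nuclear ORFs in a library, against 6.27% to 26.4% for the cytosolic ribosomal protein genes. A member gave 307 to 532 fragments in the median of a library, and the lowest value of any member other than MRPL19 was 69.7 fragments.

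The highest mean levels were those of MRPS12 (149 FPKM), RSM18 (103), MRPL36 (103) and MRPS9 (92.9). MRPS12 encodes uS12m, the counterpart of a decoding-centre protein of the bacterial small subunit. In wild type it stood at 118 FPKM at Ra-0, 128 at Gal-15, 143 at Gal-30, 142 at Gal-120, 120 at Glu-30, 94.9 at Glu-120, 177 at Gal-15-1 and 266 at Gal-30-1. In hda1-/- the same stages gave 101, 147, 157, 179, 120, 84.7, 163 and 238 FPKM. It was the highest member in all 8 wild type libraries and in 6 of the 8 hda1-/- libraries, where RSM18 (bS18m) led at Ra-0 with 110 FPKM and at Glu-30 with 140 FPKM. MRPS12 and RSM19 were the only 2 members that are next to each other on a chromosome, and RSM19 had a mean of 72.0 FPKM.

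The lowest mean levels were those of MRPL19 (14.3 FPKM), RSM22 (20.3), MRPL4 (25.4) and MRPL51 (33.8). MRPL4 encodes uL29m and ran from 16.3 FPKM at Glu-120 to 34.7 at Gal-30-1 in wild type, and from 13.6 at Glu-120 to 30.5 at Gal-15 in hda1-/-. The levels of the 53 members other than MRPL19 ranked much alike in both genotypes. Pearson's r of log2(FPKM + 1) across those 53 genes lay between 0.918 at Gal-120 and 0.963 at Gal-30-1, where genes of 1 library are not independent replicates.

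MRPL19, which encodes uL11m, was listed at 0 in 11 of the 16 libraries and between 39.0 and 53.7 FPKM in the other 5, namely wild type Glu-30 and hda1-/- Ra-0, Gal-30, Glu-30 and Gal-30-1. It lies at chrXIV:292193-292669 and shares 113 bases with a neighbouring ORF on the same strand, YNL184C. YNL184C was at 9.003 to 24.0 FPKM in the 11 libraries where MRPL19 was listed at 0, and at 0.560 to 1.46 FPKM in the other 5. The values of the pair thus alternate in full between libraries, how reads were assigned between them was not tested, and no fold is given for MRPL19. It is the only member called higher in hda1-/- at any stage. Single folds, their rankings and statements over 53 members leave it out from here on unless it is named. Genotype and shift medians, quartiles and counts given for all members, for large subunit genes or for genes with a bacterial counterpart include it. MRPL9, RSM7, MRPL38 and MRPL51 overlap an annotated ORF on the opposite strand, and whether the quantification used the strand is not given in the sources used here.

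**Figure D2:**
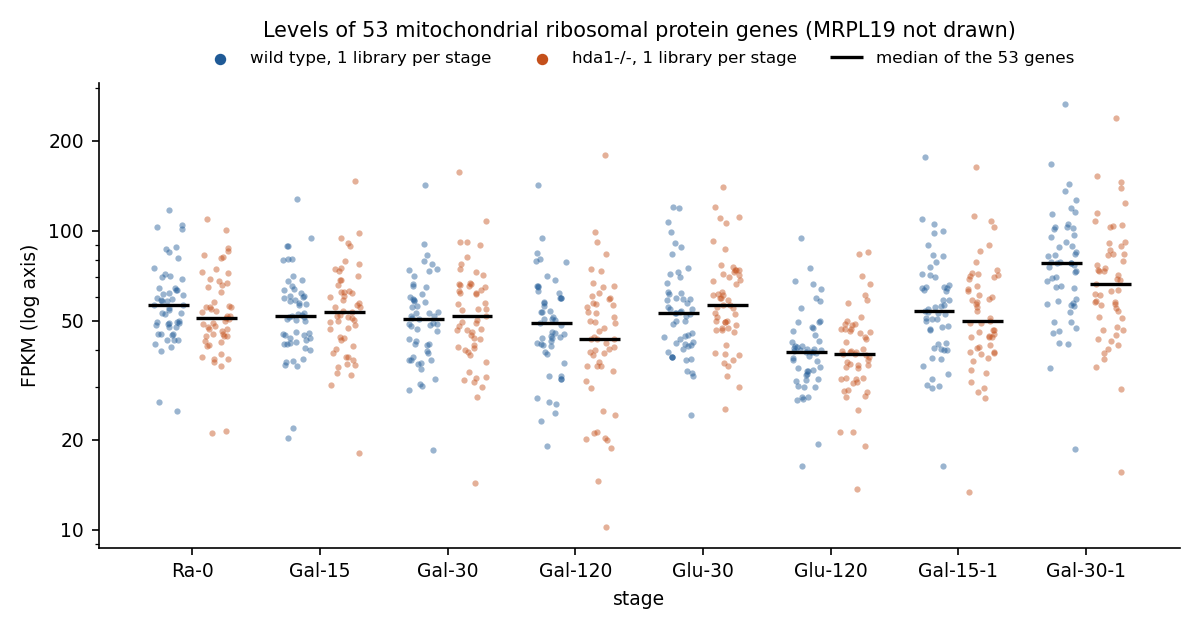
FPKM (log axis) of the 53 members other than MRPL19 at each stage (horizontal axis), wild type in blue and hda1-/- in orange, with 1 point per gene and a bar at the median. The median bars are lowest at Glu-120 and highest at Gal-30-1 in both genotypes, and MRPS12 is the top wild type point at 266 FPKM.

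Over the stages the members were lowest at the later time in glucose and highest on the return to galactose. Their median level in wild type, MRPL19 included, was 55.8 FPKM at Ra-0, 51.6 at Gal-15, 50.01 at Gal-30, 48.9 at Gal-120, 52.99 at Glu-30, 39.3 at Glu-120, 53.9 at Gal-15-1 and 77.4 at Gal-30-1. In hda1-/- the medians were 50.9, 52.8, 51.2, 43.5, 56.4, 38.8, 49.5 and 64.8 FPKM at those stages. Relative to Ra-0, the median log2 ratio of the 53 members without MRPL19 was -0.52 at Glu-120 and 0.44 at Gal-30-1 in wild type, and -0.40 and 0.34 in hda1-/-. The median member spanned 1.94-fold between its highest and lowest wild type stage and 1.95-fold in hda1-/-, while the median over all tested ORFs was 2.16-fold and 2.33-fold, and that of the cytosolic ribosomal protein genes 4.64-fold and 5.64-fold.

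Of 53 members, 43 had their highest wild type value at Gal-30-1 (81.1%, against 33.5% of all tested ORFs) and 42 had their lowest at Glu-120 (79.2%, against 18.3%). The remaining highest values fell at Ra-0 in 8 members and at Glu-30 in 2, RSM22 and MRPL3 (3.77%, against 34.4%). In hda1-/- 34 members were highest at Gal-30-1 (64.2%, against 23.1%) and 14 at Glu-30 (26.4%, against 44.6%). The lowest hda1-/- value fell at Glu-120 in 32 members (60.4%, against 21.8%) and at Gal-120 in 18 (34%, against 30.6%).

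The return from glucose to galactose gave the members the largest median shift of the 4 compared. Between Glu-120 and Gal-30-1 their median log2 ratio was 0.92 in wild type (quartiles 0.75 and 1.1) and 0.81 in hda1-/- (quartiles 0.56 and 1.04), while the medians of all tested ORFs were 0.11 and -0.00392. At the 2-fold mark, 20 of the 54 members were raised in wild type and 0 lowered, against 20.4% and 19.4% of all tested ORFs. In hda1-/- 15 were raised, MRPL19 among them, and 0 lowered, against 16.8% and 21.6%. In wild type 52 members moved up by any amount and 1, RSM22, moved down, with MRPL19 at 0 in both libraries.

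The largest wild type rise was that of RSM10 (uS10m), from 39.9 to 127 FPKM, 3.13-fold (2.74 to 3.58). MRPL25 (mL59) went from 27.2 to 78.3 FPKM, 2.81-fold (2.34 to 3.40), and MRPS12 from 94.9 to 266 FPKM, 2.79-fold (2.52 to 3.09). MRPL28 (mL40) rose 2.73-fold (2.28 to 3.29) and RSM28 (mS46) 2.61-fold (2.35 to 2.90). The 2 members that rose most in hda1-/- were MRPL25, from 21.2 to 63.4 FPKM, 2.90-fold (2.35 to 3.59), and MRPS12, from 84.7 to 238 FPKM, 2.79-fold (2.50 to 3.12). RSM10 rose 2.24-fold there. The order of the members was alike in the 2 strains, with Pearson's r of 0.836 across 53 genes between their wild type and hda1-/- log2 ratios.

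At the other end stood RSM22, with 19.3 FPKM at Glu-120 and 18.6 at Gal-30-1 in wild type, 0.96-fold (0.84 to 1.11), and 19.1 and 15.6 FPKM in hda1-/-, 0.82-fold (0.71 to 0.95). MRPL3 (mL44) was at 1.20-fold (1.07 to 1.34) in wild type, RSM26 (mS42) at 1.21-fold and MRPL20 (mL58) at 1.22-fold, all under the 2-fold mark. MRPL15 (mL57) was at 34.7 and 35.04 FPKM in the 2 hda1-/- libraries, 1.01-fold (0.86 to 1.19).

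The share of RNA genes in the aligned gene bases, a measure of library make-up, was 14.0% in wild type and 13.9% in hda1-/- at Gal-30-1, against 8.98% and 9.88% at Glu-120. The cytosolic ribosomal protein genes fell in the same libraries by a median of 2.19 on the log2 scale in wild type and 2.50 in hda1-/-. The part of library make-up in the members' shift was not tested. Relative to the median of all tested ORFs the members were at 0.81 in wild type, with 13 past 2-fold. The share of all tested ORFs past 2-fold after this centring is not given here.

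**Figure D3:**
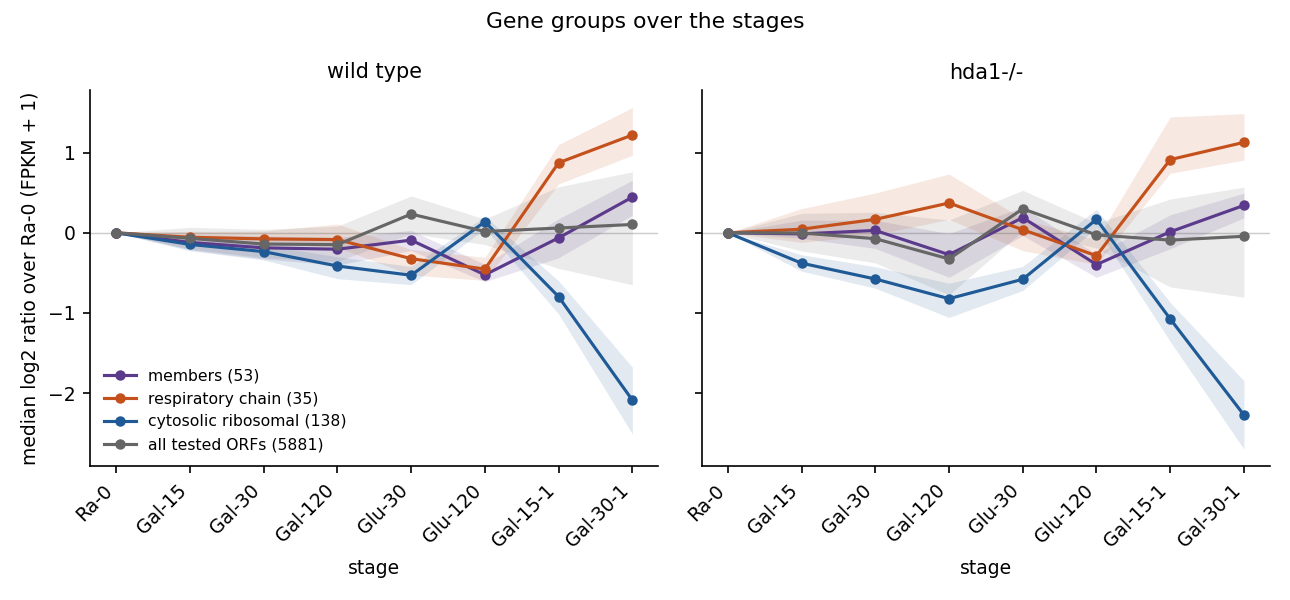
Median log2 ratio over Ra-0 (vertical axis, FPKM + 1) at each stage (horizontal axis) for 4 gene groups, wild type left and hda1-/- right, with shaded quartiles over genes and 1 library per point. At Gal-30-1 the members lie above all tested ORFs and below the respiratory chain genes, and the cytosolic ribosomal protein genes lie lowest.

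At this shift the members lay between the respiratory chain and the cytosolic ribosome. From Glu-120 to Gal-30-1 the 35 respiratory chain genes had a median log2 ratio of 1.72 in wild type and 1.4 in hda1-/-, with 33 and 27 genes past 2-fold. The other mitochondrial ribosomal protein genes had 0.79 and 0.73, the mitochondrial tRNA synthetases 0.85 and 0.71, the translation factors 1.02 and 0.77, and the translational activators 0.87 and 0.59. The cytosolic ribosomal protein genes, 130 of which in wild type and 131 of which in hda1-/- were lowered past 2-fold of 138, moved the other way. Between Glu-30 and Glu-120 the 2 kinds of ribosomal protein gene also parted, with medians of -0.40 in wild type and -0.56 in hda1-/- for the members and 0.66 and 0.76 for the cytosolic genes.

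In that second part of the glucose stage, from Glu-30 to Glu-120, all 54 members, MRPL19 among them, were lower at the later time in both genotypes, while the medians of all tested ORFs were -0.22 and -0.35. Only MRPL19 passed 2-fold in either genotype, against 6.39% of all tested ORFs lowered and 1.96% raised in wild type and 6.12% and 1.84% in hda1-/-. RSM22 went from 37.2 to 19.3 FPKM in wild type, 0.53-fold (0.48 to 0.59), and from 37.0 to 19.1 in hda1-/-, 0.53-fold (0.47 to 0.59). MRPS18 (uS11m) went from 107 to 58.3 FPKM in wild type, 0.55-fold (0.49 to 0.61), and MRPL27 (mL41) from 49.7 to 25.2 FPKM in hda1-/-, 0.52-fold (0.42 to 0.63). MRPL37 (mL54), at 34.1 and 33.2 FPKM in wild type, and MRPL44 (mL53), at 35.2 and 34.98 FPKM in hda1-/-, were the members nearest to no change, and their intervals include 1.

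From Gal-120 to Glu-30 the members had a median log2 ratio of 0.15 in wild type and 0.39 in hda1-/-, both below the medians of all tested ORFs (0.34 and 0.56), so that relative to all ORFs the members were at -0.19 and -0.17. In wild type 1 member, MRPL19, was past 2-fold and 0 were lowered, against 10.1% and 4.03% of all tested ORFs. In hda1-/- 8 were raised and 0 lowered, against 28.6% and 5.7%. After centring on all ORFs the member counts were 3 and 4, and the shares of all ORFs after centring are not given here. RSM22 went from 19.1 to 37.2 FPKM in wild type, 1.90-fold (1.71 to 2.12), and from 10.2 to 37.0 in hda1-/-, 3.38-fold (2.96 to 3.86). MRPL3 went from 21.1 to 72.7 FPKM in hda1-/-, 3.34-fold (2.96 to 3.78), and MRPL27 from 23.2 to 40.3 in wild type, 1.71-fold (1.38 to 2.12). MRPL28 was lower at Glu-30 in both, 0.67-fold (0.55 to 0.80) in wild type and 0.59-fold (0.50 to 0.70) in hda1-/-, as were MRPL25 in wild type (0.72-fold) and MRPS12 in hda1-/- (0.67-fold).

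From Ra-0 to Gal-120 the medians were -0.20 in wild type and -0.28 in hda1-/-, beside -0.15 and -0.33 for all tested ORFs, so in hda1-/- the members lay 0.05 above all ORFs. In wild type 0 members were raised and 1, MRPL27, was lowered, against 4.11% and 1.75% of all tested ORFs. After centring, with no centred share of all ORFs given here, 1 member was raised and 1 lowered in hda1-/-. Without centring 0 were raised and 6 lowered there, against 7.45% and 15.3%. The 6 were MRPL19, MRPL27, MRPL20, MRPL3, MRPL44 and MRPL51. MRPL27 went from 49.5 to 23.2 FPKM in wild type, 0.48-fold (0.39 to 0.59), and from 48.0 to 20.1 in hda1-/-, 0.43-fold (0.35 to 0.54). MRPL51 (mL43) went from 35.3 to 14.6 FPKM in hda1-/-, 0.43-fold (0.33 to 0.55). MRPS12 moved the other way, 1.21-fold (1.08 to 1.34) in wild type and 1.77-fold (1.6 to 1.96) in hda1-/-, and MRPL28 was at 1.43-fold (1.22 to 1.68) in hda1-/-, none of them past 2-fold.

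**Figure D4:**
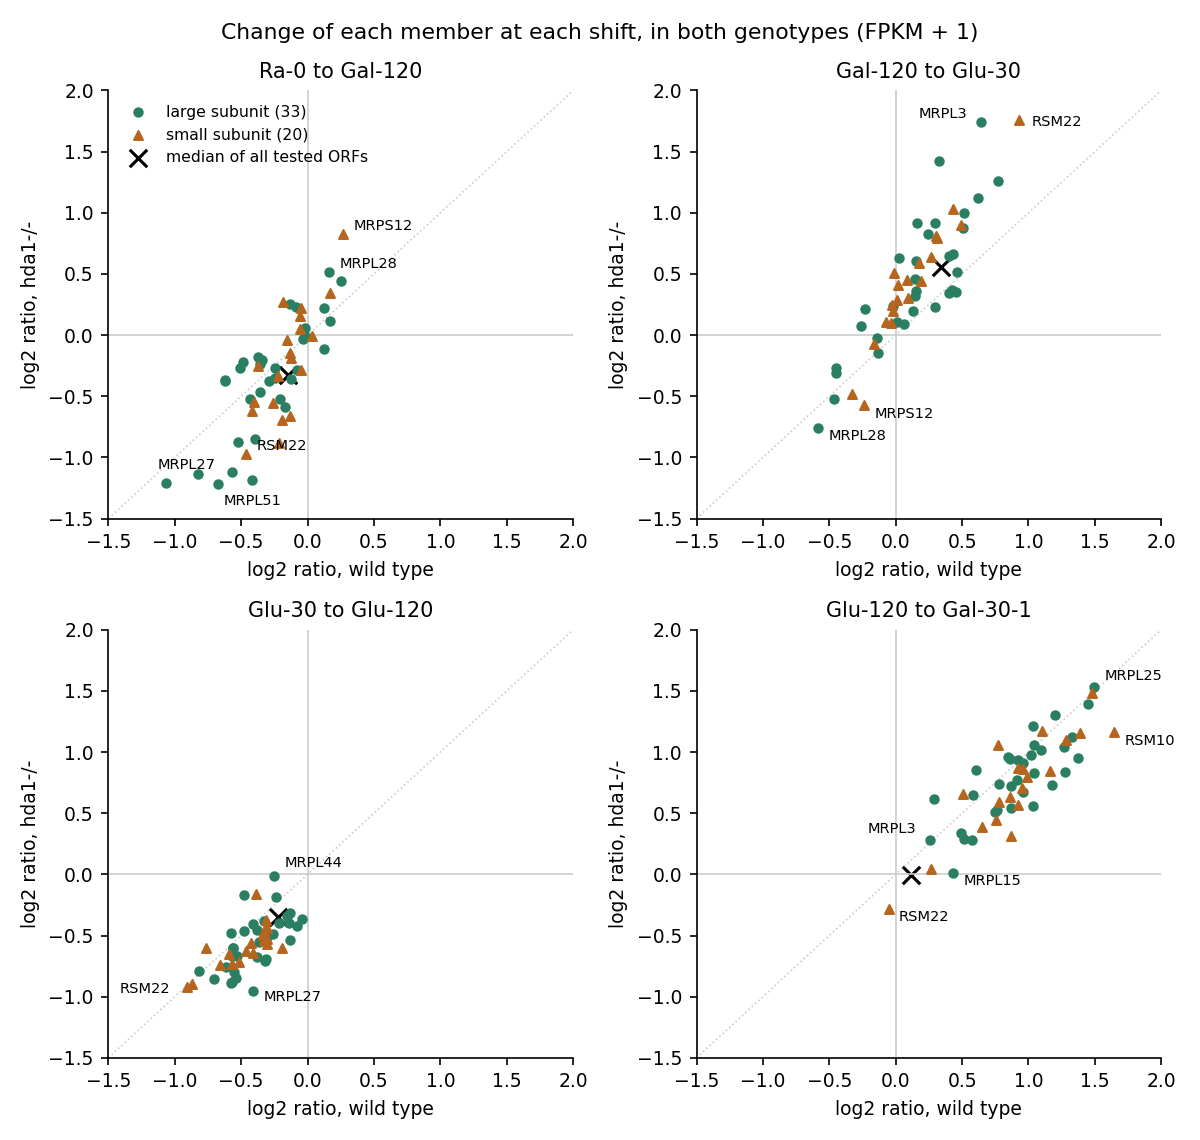
Log2 ratio (FPKM + 1) of each of 53 members at 4 shifts, wild type on the horizontal and hda1-/- on the vertical axis, with large subunit genes as circles, small subunit genes as triangles and the median of all tested ORFs as a cross. From Glu-120 to Gal-30-1 nearly all members lie above the cross on both axes, and RSM22 lies below it.

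MRPL28, MRPL25 and MRPS12, all 3 past 2-fold on return to galactose in both genotypes, were lower at Glu-30 than at Gal-120 in both, MRPS12 in wild type by the smallest step (142 and 120 FPKM). Other members past that mark in both genotypes went either way. RSM10, RSM7, MRPL6 and MRPL39 were lower at Glu-30 in both, and MRPL36, MRPL49, RSM19 and MRPL16 were higher in both. RSM28 and MRPL4 were lower in wild type and higher in hda1-/-. RSM22, MRPL3 and MRPL27 had the opposite sign between those stages. Across 53 members the log2 ratios of the 2 genotypes had Pearson's r of 0.788 from Ra-0 to Gal-120, 0.878 from Gal-120 to Glu-30 and 0.646 from Glu-30 to Glu-120.

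RSM22 differed from the other members in sequence and in profile. It is annotated as a methyltransferase, lacks the site letters, and is the longest member at 1887 bases. In wild type it was at 26.8 FPKM at Ra-0, 20.3 at Gal-15, 18.5 at Gal-30, 19.1 at Gal-120, 37.2 at Glu-30, 19.3 at Glu-120, 16.3 at Gal-15-1 and 18.6 at Gal-30-1. In hda1-/- the stages gave 21.1, 18.1, 14.3, 10.2, 37.0, 19.1, 13.3 and 15.6 FPKM. In both strains the Glu-30 library was well above the other 7. Its Pearson's r with the median profile of the members over the 16 libraries was 0.18, the lowest of the 54, followed by MRPL19 at 0.27 and MRPL3 at 0.47. The highest was MRPS9 at 0.97, and the median member had 0.81.

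MRPL3, whose product mL44 belongs to the family of ribonuclease III-like proteins, was at 53, 50.4, 48.2, 39.4, 62.2, 41.3, 40.3 and 49.7 FPKM over the wild type stages from Ra-0 to Gal-30-1. In hda1-/- it was at 49.2, 46.9, 40.0, 21.1, 72.7, 38.8, 44.3 and 47.5 FPKM. Like RSM22 it was highest at Glu-30 in both strains, and its lowest library was Gal-120 in both. The second time in galactose did not lift it above its Ra-0 level.

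At 30 min of galactose the members were higher in the second exposure than in the first, and at 15 min their medians lay near 0, a comparison added after the values had been seen. From Gal-30 to Gal-30-1, 53 of 53 members were higher in wild type and 49 of 53 in hda1-/-. Of the 5881 tested ORFs, 3620 and 2811 were higher. The median log2 ratio of the members was 0.62 in wild type and 0.35 in hda1-/-, beside 0.26 and -0.02 for all tested ORFs. From Gal-15 to Gal-15-1 it was 0.09 in wild type and -0.03 in hda1-/-, beside 0.13 and -0.10. MRPL37 changed most at 30 min in both strains, from 30.7 to 65.3 FPKM in wild type, 2.09-fold (1.68 to 2.61), and from 30.1 to 61.1 in hda1-/-, 1.997-fold (1.59 to 2.51). MRPL20 was at 41.8 and 42.0 FPKM in wild type, 1.01-fold (0.85 to 1.19). Respiratory chain genes had medians of 1.34 and 0.98 in the 30 min comparison, and cytosolic ribosomal protein genes of -1.79 and -1.69.

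The genotype comparison asks whether loss of Hda1 changed the levels of these genes at a given stage. HDA1 itself was at 27.0 to 38.8 FPKM in the wild type libraries and at 0 to 0.162 FPKM in the libraries labelled hda1-/-. At a 1.7-fold mark applied in both directions, 0 of 424 values (53 members at 8 stages) were higher in hda1-/- and 4 were lower, all 4 at Gal-120. The 53 members had ratios between 0.55 and 1.37 at any stage. With MRPL19 counted, 49 of the 54 members never passed the rule, 5 passed at 1 or more stages, and MRPL19 passed in 1 direction at 3 stages. At a single stage, 3.32% to 9.35% of all tested ORFs were higher and 1.11% to 9.79% lower. The share of all ORFs that never passed over the 8 stages is not given here, so the 49 of 54 has no background beside it.

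At Ra-0 the median log2 ratio of hda1-/- over wild type was -0.11 (41 of 54 members below 0), beside 0.01 for all tested ORFs (2802 of 5881 below 0). Past 1.7-fold, 1 member was higher, MRPL19, and 0 lower, against 4.9% and 1.11% of all tested ORFs. MRPL7 (uL5m) was at 69.1 and 52.0 FPKM, 0.76-fold (0.68 to 0.84), and MRPL35 (mL38) at 61.8 and 47.8, 0.78-fold (0.70 to 0.86). MRPL33 (uL30m) was at 52.96 and 68.0 FPKM, 1.28-fold (1.04 to 1.58), and MRPL49 (bL21m) at 56.6 and 65.8, 1.16-fold (1.00 to 1.35). The 12 translation factors and the 13 tRNA synthetases of mitochondria were all below 0 at this stage, with medians of -0.17 and -0.22. The 15 translational activators had a median of 0.004, with 8 above 0. Outside mitochondrial translation, the respiratory chain genes had a median of -0.18 (30 of 35 below 0). The cytosolic ribosomal protein genes had one of -0.16 (124 of 138 below 0).

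In the first galactose exposure the medians followed those of all ORFs. At Gal-15 the median was 0.04, beside 0.09, and -0.05 after centring on all ORFs, with 0 members past the rule in either direction, against 7.84% of ORFs higher and 1.7% lower. At Gal-30 it was 0.08 and -0.01 after centring on all ORFs, with 1 member higher (MRPL19) and 0 lower, against 9.35% and 2.41%. MRPL4, at 21.99 and 30.5 FPKM in wild type and hda1-/-, had a ratio of 1.37 (1.17 to 1.6) at Gal-15, and RSM7 (uS7m), at 68.1 and 89.3 FPKM, one of 1.31 (1.18 to 1.45). MRPL28 at Gal-30 was at 48.7 and 66.4 FPKM, 1.36-fold (1.16 to 1.58), and MRPS17 (uS17m) at 56.0 and 74.7, 1.33-fold (1.19 to 1.49). MRPL20 was 0.75-fold at both times (0.64 to 0.89 at each), MRPS8 (uS8m) 0.74-fold (0.63 to 0.88) at Gal-15 and RSM22 0.79-fold (0.69 to 0.90) at Gal-30.

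At Gal-120 the quartiles of the members were widest. Their median was -0.14, which was 0.00 after centring on all tested ORFs, with quartiles of -0.32 and 0.02. The quartiles of all tested ORFs lay further apart at this stage, at -0.47 and 0.19. Of the 54, 0 were higher and 4 lower, against 8.06% and 9.79% of all tested ORFs, so the share of members called was below the background. The 4 were MRPL3, at 39.4 and 21.1 FPKM, 0.55-fold (0.48 to 0.62), RSM22, at 19.1 and 10.2 FPKM, 0.56-fold (0.48 to 0.65), MRPL20, at 36.3 and 19.96 FPKM, 0.56-fold (0.46 to 0.68), and MRPL51, at 26.7 and 14.6 FPKM, 0.56-fold (0.43 to 0.74). Centred on all tested ORFs, 0 members were past the rule, and the centred share of all ORFs is not given here. RSM10, at 63.0 and 83.5 FPKM, had the highest ratio, 1.32 (1.17 to 1.49), followed by MRPL28, at 50.6 and 66.8 FPKM, with 1.31 (1.13 to 1.54). RNA genes took 15.7% of aligned gene bases in the hda1-/- library and 10.2% in the wild type library of this stage, and their part in these ratios was not tested.

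At Glu-30 the median was 0.15, beside 0.08 for all tested ORFs, with 41 of 54 members above 0 and 0 past the rule, against 5.95% of ORFs higher and 1.39% lower. MRPL11 (uL10m) was at 41.2 and 56.3 FPKM, 1.36-fold (1.20 to 1.54), and MRPL40 (uL24m) at 42.1 and 55.1, 1.3-fold (1.16 to 1.46). MRPL51 was 0.80-fold (0.66 to 0.96) and MRPS8 0.86-fold (0.72 to 1.03). At Glu-120 the median was -0.01, beside -0.03, and 0.02 after centring, again with 0 past the rule, against 5.02% and 1.26%. MRPL51 was 0.77-fold (0.60 to 0.99), MRPL25 0.79-fold (0.62 to 1.00), MRPL23 (uL13m) 1.16-fold (0.97 to 1.38) and MRPL33 1.23-fold (0.97 to 1.56), the last pair within counting error of 1.

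On the second exposure to galactose the medians were -0.05 at Gal-15-1 and -0.14 at Gal-30-1, beside -0.16 at both for all tested ORFs, which puts the members at 0.12 and 0.01 after centring. At Gal-15-1, 0 members were past the rule, against 3.52% of ORFs higher and 5.92% lower, and at Gal-30-1 1 was higher (MRPL19) and 0 lower, against 3.32% and 4.69%. MRPL15 was at 39.98 and 29.0 FPKM at Gal-15-1, 0.73-fold (0.62 to 0.86), and MRPL24 (bL28m) at 64.8 and 49.2, 0.76-fold (0.67 to 0.87), while MRPL8 (bL17m) was 1.24-fold (1.06 to 1.44) and RSM27 (mS33) 1.17-fold (0.92 to 1.48). MRPL17 (mL46) was at 69.5 and 46.6 FPKM at Gal-30-1, 0.68-fold (0.59 to 0.77), and MRPS8 at 59.0 and 40.2, 0.69-fold (0.57 to 0.83). RSM7 was 1.17-fold (1.06 to 1.28) and MRPL39 (bL33m) 1.11-fold (0.92 to 1.34). RNA genes took 14.7% of gene bases in hda1-/- and 11.7% in wild type at Gal-15-1.

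**Figure D5:**
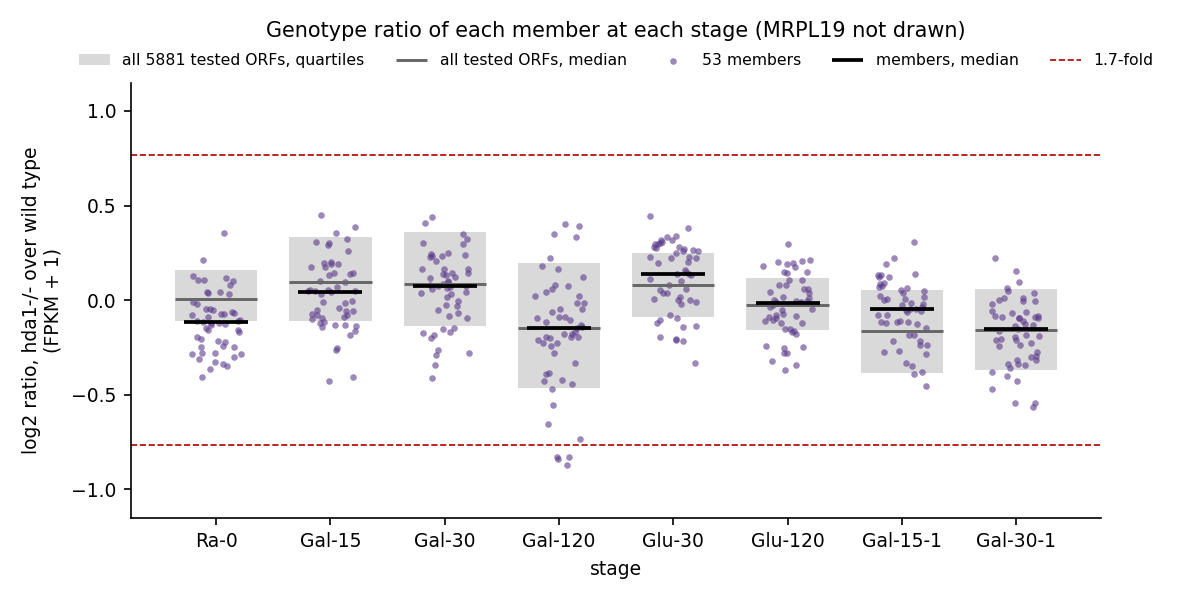
Log2 ratio of hda1-/- over wild type (vertical axis, FPKM + 1) for 53 members at each stage (horizontal axis), with black bars at their median, grey boxes and lines for the quartiles and median of all 5881 tested ORFs, and dashed lines at 1.7-fold. At Ra-0 the member median (-0.12 over the 53) lies just under the lower edge of the grey box, at the other 7 stages inside it, and 4 points lie past the dashed line, all at Gal-120.

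A few members kept 1 sign over the stages. RSM7 was higher in hda1-/- at all 8 stages, between 1.03-fold and 1.31-fold, and it overlaps an ORF on the opposite strand. RSM22, RSM25 (mS23) and MRPL25 were lower at all 8, with RSM25 between 0.77-fold and 1.00-fold and MRPL25 between 0.79-fold and 0.96-fold. MRPS8 was lower at 7 of 8 stages, between 0.60-fold and 1.01-fold, and MRPL51 was lower at 7 of 8, between 0.56-fold and 1.1-fold. MRPL31, RSM26, MRPL35 and MRPL13 were also lower at 7 of 8, and MRPL10, RSM18 and MRPS17 were higher at 7 of 8. The share of all tested ORFs with such runs of 1 sign is not given here. These are ratios between single libraries. For each of RSM7, RSM22, RSM25, MRPL25, MRPS8 and MRPL51 the counting interval included 1 at 3 or more stages.

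The medians of large and small subunit genes from Glu-120 to Gal-30-1 were 0.92 and 0.92 in wild type and 0.83 and 0.75 in hda1-/-, and their genotype medians were furthest apart at Gal-15, at -0.03 and 0.07. From Glu-120 to Gal-30-1 the medians of the 33 genes with a bacterial counterpart and the 20 without one were 0.96 and 0.76 in wild type and 0.87 and 0.64 in hda1-/-. In wild type 15 of the 33 and 5 of the 20 were raised past 2-fold, against 20.4% of all tested ORFs. From Ra-0 to Gal-120 they were -0.16 and -0.39 in wild type but -0.27 and -0.30 in hda1-/-, nearer to each other than those of large and small subunit genes there (-0.32 and -0.22). The genes without a counterpart also had the lower genotype median at 7 of the 8 stages, for example -0.16 and -0.07 at Ra-0, -0.09 and 0.06 at Gal-15 and -0.02 and 0.12 at Gal-30. Of the 4 called lower at Gal-120, 3 belong to them (15% of the 20, against 9.79% of all tested ORFs) and 0 to the 33. These counts are small. At Glu-30 the order was reversed, 0.17 and 0.15.

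A C at the place 2 bases before the site went with no large difference in the shift. The 43 members with a C 2 bases before a site had a median log2 ratio of 0.92 from Glu-120 to Gal-30-1 in wild type. The 9 whose sites lack it, MRPL19 apart, had 1.04. In hda1-/- these medians were 0.80 and 0.83, and 9 is a small group. Among ORFs that are not members, the 913 with the site letters had a median of 0.26 in wild type and 0.17 in hda1-/- at that shift, and the 4914 without them had 0.07 and -0.04.

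Genes outside the members were ranked by how close their profile was to that of the members. Pearson's r of log2(FPKM + 1) with the median profile of the members was taken over the 16 libraries, which share 8 stages, so it is a description. The highest values among 5827 other tested ORFs were those of MHR1 (0.96), which encodes the mitochondrial ribosomal protein and recombination factor mL67, MRP17 (0.95), which encodes bS6m, FZO1 (0.95), the mitofusin of the outer membrane, AIM36 (0.95), MSD1 (0.94), the mitochondrial aspartyl-tRNA synthetase, SLM5 (0.92), the asparaginyl one, ACP1 (0.91), the mitochondrial acyl carrier protein, IBA57 (0.91), an iron-sulfur cluster factor, YCR023C (0.90) and MSC6 (0.90). Of these 10, 9 hold the site letters after their stop codon, and YCR023C, which neighbours SLM5, does not.

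Of the 50 nearest genes, 36 hold the site (72.0%, against 15.7% of the 5827). The 50 include 10 of the 21 listed other mitochondrial ribosomal protein genes, 5 of the 13 tRNA synthetases, 2 of the 12 translation factors and 1 of the 15 translational activators. They include none of the 35 respiratory chain genes or the 138 cytosolic ribosomal protein genes. MHR1 is not in the list of 21, so that list is incomplete. The median r was 0.83 for the other mitochondrial ribosomal protein genes, 0.65 for the respiratory chain genes and -0.69 for the cytosolic ribosomal protein genes.

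The products of mitochondrial DNA that join these proteins were detected at low levels. VAR1 was at 0.600 to 1.52 FPKM in wild type and 0.685 to 1.95 FPKM in hda1-/-, and the 21S_rRNA gene at 3.78 to 13.4 FPKM and 6.30 to 15.2 FPKM. In both genotypes VAR1 and 21S_rRNA were highest at Gal-30-1. For VAR1 the lead was narrow, at 1.52 against 1.42 FPKM at Gal-15-1 in wild type and 1.95 against 1.77 in hda1-/-. No counting interval is given for it. The libraries were made with an mRNA kit, and these levels are not compared with those of the nuclear genes.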

How the data were processed

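RNA was extracted with hot phenol and libraries were made with a directional mRNA kit and read on a HiSeq2500. The submitters' processing notes name FastQC 0.11.5, HISAT2 2.0.4, SAMtools, StringTie 1.3.0 and bedtools 2.26.0, with builds R64 and sacCer3. The authors deposited 1 StringTie table of transcripts per library with coverage, FPKM and TPM, made with the Ensembl annotation of release 86, and the deposited FPKM was analysed. TPM was an alternative.

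Libraries held 1.67 to 2.51 Gb of aligned gene bases, and 202 bases were counted as 1 fragment (the step seen in low genes; whether reads were paired is not given in the sources used here). For a coding length of 1 kb, 3 fragments, taken as the floor, come to 0.217 to 0.320 FPKM. The 5881 nuclear ORFs whose mean reached 1 FPKM were kept. A pseudocount of 1 FPKM, a 1.7-fold mark between genotypes (the study applied this size to increases, and it was applied here to decreases too, as 0.588) and 2-fold between stages were used. With 1 library per group no test was run. Medians of members are given beside those of all tested ORFs, and centred values subtract the latter. The procedure was tested on simulated data.

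Members, lists and settings were chosen with earlier results of these data known. Named members are the 4 highest and 4 lowest by mean, the 2 highest and 2 lowest of each comparison among members never under the floor, those past 1.7-fold in 1 direction at 3 or more stages and those under the floor in any library. Outside the rule, the members used to compare profiles and sites (such as RSM28, RSM26, MRPS9, RSM19 and RSM25), YNL184C and the rRNA gene were named after their values were seen, as were the check for C before the site, the 150-base window and the comparison of galactose exposures. All 54 members had the same coordinates in the RefSeq table of R64, where each starts with ATG and ends in a stop codon. Python 3.11.15, pandas 2.3.3, NumPy 2.4.6, SciPy 1.17.1 and matplotlib 3.10.9 were used. Raw reads were not analysed here.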

Additional observations from a re-analysis of the deposited data

How the results depend on the processing

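Over 48 results, 372 of 416 alternative values stayed within the 95% order-statistic interval of the median over members (a description) or within 1.5 times the count given in the report. Pseudocount 0.1 and no minimum level moved none beyond that. Centring on all tested ORFs turned the sign of the genotype medians at Gal-15 (-0.05), Gal-30 (-0.01), Gal-120 (0.00), Glu-120 (0.02), Gal-15-1 (0.12) and Gal-30-1 (0.01), so only those at Ra-0 and Glu-30 kept theirs. It also turned the Gal-120 to Glu-30 medians of wild type (-0.19) and hda1-/- (-0.17), and the Ra-0 to Gal-120 median of hda1-/- (0.05). It moved, with the same sign, the medians from Ra-0 to Gal-120 in wild type (-0.05) and from Glu-30 to Glu-120 (-0.17 in wild type, -0.21 in hda1-/-), and that from Glu-120 to Gal-30-1 in wild type (0.81, 13 raised). With centring, 0 members were lower at Gal-120 and 0 lowered from Ra-0 to Gal-120 in wild type. In hda1-/- 1 was then raised and 1 lowered from Ra-0 to Gal-120, and 3 raised and 4 lowered from Gal-120 to Glu-30. The centred counts have no centred share of all tested ORFs beside them.

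TPM gave medians of 0.16 at Gal-30 and -0.21 at Gal-120, and 2 lowered from Glu-30 to Glu-120 in hda1-/-. Pseudocount 5 left 1 lower at Gal-120, 0 lowered from Ra-0 to Gal-120 in wild type and 5 raised from Gal-120 to Glu-30 in hda1-/-. At a genotype threshold of 2-fold 0 were lower at Gal-120. At a shift threshold of 3-fold, 0 in wild type and 1 in hda1-/- were lowered from Ra-0 to Gal-120, 3 raised from Gal-120 to Glu-30 in hda1-/- and 1 raised from Glu-120 to Gal-30-1 in each genotype. Adding the other mitochondrial ribosomal protein genes gave 13 raised from Gal-120 to Glu-30 in hda1-/-. Without the members that overlap another gene, or without those near 0, the counts that MRPL19 alone made were 0 (higher at Ra-0, Gal-30 and Gal-30-1, raised from Gal-120 to Glu-30 in wild type, lowered from Glu-30 to Glu-120 in each genotype). The cause was not tested. The labels give no replicate numbers to pair, and the 8 pairs of libraries matched by stage, with 1 library per genotype and stage, are given as ratios with no test. A floor of 3 fragments limits only MRPL19, and culture-to-culture error is unknown.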
